A study of Homo sapiens with 21 samples.

Results

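The 8 laminin chain genes LAMA1, LAMA3, LAMA4, LAMA5, LAMB1, LAMB2, LAMB3 and LAMC1 were followed by symbol through 21 RNA-seq libraries of 2 human cancer cell lines. FADU comes from a tumour of the head and neck, and BFTC909 from a urothelial cancer of the upper urinary tract. All 8 were listed among the 20970 gene identifiers of the tables, but LAMA1 was not listed in the BFTC909 table and LAMA4 was not listed in the table of mutant cells. Values are TMM-normalised counts per 1e+06 reads (TMM-CPM), set separately in each of 4 tables, so levels of different tables are given side by side and were not tested against each other. Libraries held from 17.8 to 25.4 M reads on genes, M being 1e+06.

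In each line, cells with a scramble control (labelled Scramble-si, called Scr here) were kept at 18% O2 (normoxia) or 1% O2 (hypoxia) for 18 h, and cells labelled METL4-si (called METTL4-si here) were kept in hypoxia, with 2 libraries in each group. METTL4 is a putative methyltransferase of DNA N6-adenine. A table of FADU cells in normoxia held 2 libraries each of a control, of METTL4 overexpression (METTL4-OE) and of overexpression of the long non-coding RNA RP11-390F4.3 (RP11-390F4.3-OE), made as stable clones by the study's methods. A table of hypoxic FADU cells held 1 CRISPR control library and 1 library of each of 2 knock-in clones, each grown from a single cell, with the DPPW motif of METTL4 changed (METTL4-DPPW-mut). The RP11-390F4.3-OE columns carried another name and were matched to their group by elimination, so they have no replicate number of their own.

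Laminins are trimers of an alpha, a beta and a gamma chain and the main adhesive proteins of basement membranes. Laminin-332, which holds the chains encoded by LAMA3 and LAMB3, anchors epithelial cells through integrin alpha-6 beta-4, and laminin-511, from LAMA5, LAMB1 and LAMC1, is the widespread laminin of epithelial basement membranes. LAMA1 and LAMA4 encode alpha chains of embryonic and of vascular and mesenchymal laminins, and LAMB2 encodes a beta chain that can take the place of LAMB1. Gene-level values of LAMA3 sum its long and short transcripts.

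LAMA3 and LAMB3 rose together when METTL4 or RP11-390F4.3 was overexpressed, and LAMA5 was lower, past the 1.3-fold threshold only with METTL4. The upstream sequences of LAMA3, LAMB3 and LAMA5 are shown for this reason. Each is the 250 bases before a RefSeq start (GRCh38.p14), 5′ to 3′ on the gene's strand, with capitals for the AP-1 letters TGACTCA or TGAGTCA, which are reverse complements. The regions are chr18:23872770-23873019 on the plus strand for LAMA3, chr1:209652426-209652675 and chr1:209651375-209651624 on the minus strand for the outermost and the innermost of 3 starts of LAMB3, and chr20:62367313-62367562 on the minus strand for LAMA5.
LAMA3: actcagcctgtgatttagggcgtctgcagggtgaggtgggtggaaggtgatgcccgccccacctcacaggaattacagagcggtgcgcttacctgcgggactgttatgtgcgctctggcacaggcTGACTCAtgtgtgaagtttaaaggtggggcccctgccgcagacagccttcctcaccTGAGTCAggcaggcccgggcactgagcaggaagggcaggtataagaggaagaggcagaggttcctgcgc
LAMB3 outermost start: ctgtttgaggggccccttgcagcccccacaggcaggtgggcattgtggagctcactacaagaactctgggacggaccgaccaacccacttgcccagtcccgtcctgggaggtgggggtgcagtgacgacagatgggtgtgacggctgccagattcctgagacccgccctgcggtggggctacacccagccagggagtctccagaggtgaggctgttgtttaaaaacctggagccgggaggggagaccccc
LAMB3 innermost start: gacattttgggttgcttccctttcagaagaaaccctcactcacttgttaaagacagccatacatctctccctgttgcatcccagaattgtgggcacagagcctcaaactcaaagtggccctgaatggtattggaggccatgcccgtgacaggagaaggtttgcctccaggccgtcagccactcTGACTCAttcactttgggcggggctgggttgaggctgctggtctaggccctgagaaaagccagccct
LAMA5: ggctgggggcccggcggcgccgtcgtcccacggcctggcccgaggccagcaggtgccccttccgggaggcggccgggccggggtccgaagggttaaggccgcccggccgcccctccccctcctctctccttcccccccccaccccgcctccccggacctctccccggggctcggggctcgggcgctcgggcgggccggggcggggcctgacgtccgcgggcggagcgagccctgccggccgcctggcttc
The LAMA3 start shown is the only one given for that gene. Which of its long and short transcripts begins there was not determined, while the values sum both. The LAMA3 sequence held the AP-1 letters at 2 places, beginning 125 and 69 bases before the start, and the innermost LAMB3 start held them once, 67 bases before it. Neither the outermost LAMB3 start nor LAMA5 held them. Among 35116 upstream sequences of the same length, 4.203% held them at least once and 0.182% at least at 2 places. The 9 upstream sequences that RefSeq's table gave for 7 of the 8 genes, with none for LAMA1, held them in 2 cases. The hypoxia response element core ACGTG or its reverse complement CACGT was in 0 of the 9 and in 18.5% of all. These letters are a description of the sequences and were not tested as sites.

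As checks of the labels, CA9, a hypoxia-induced carbonic anhydrase, rose 14.1-fold in hypoxic Scr FADU cells and 71.9-fold in hypoxic Scr BFTC909 cells. The libraries labelled METTL4-si and hypoxic did not show this rise in FADU, with CA9 at 2.05 ± 0.248 TMM-CPM (SD, n = 2) against 2.44 ± 0.155 in normoxia and 34.4 ± 4.81 in hypoxic Scr, and in BFTC909 they stood at 5.69 ± 0.217 against 0.766 ± 0.577 and 55.1 ± 1.57. SLC2A1, a glucose transporter that hypoxia induces, was 3.75-fold and 2.79-fold lower in METTL4-si than in hypoxic Scr (adjusted p = 5.1e-05 and 2.7e-05). In FADU SLC2A1 stood at 359 in METTL4-si against 361 in normoxia, so these 2 genes do not bear out the hypoxia label there. In BFTC909 CA9 lay between normoxia and hypoxic Scr. The paper reports that METTL4 knockdown abolished hypoxia-activated expression of Glut1 (SLC2A1) in both lines. The part of the knockdown in these values was not tested. VEGFA, a further check gene, went the other way in FADU. It was 1.33-fold lower in hypoxic Scr than in normoxia (adjusted p = 0.0160), and 1.37-fold higher in METTL4-si than in hypoxic Scr (adjusted p = 0.00732). In BFTC909 it rose 5.66-fold in hypoxic Scr (adjusted p = 1.2e-05). In normoxia CA9 read 0.825 ± 0.114 in the overexpression control, 9.27 ± 0.170 in METTL4-OE and 13.4 ± 0.265 in RP11-390F4.3-OE. METTL4 itself read 26.6 and 25.3 TMM-CPM in hypoxic Scr FADU libraries and 24.2 and 27.1 in those labelled METTL4-si, with overlapping groups, so the transcript does not separate these labels. In BFTC909 METTL4 read 19.0 and 15.6 in Scr and 14.4 and 12.2 in libraries labelled METTL4-si (adjusted p = 0.0717). It read 35.4 and 32.7 in the overexpression control against 158 and 139 in METTL4-OE. The level of RP11-390F4.3 was not analysed here. FADU libraries held 12 of 13 squamous and 10 of 10 general epithelial markers at 1 or more. BFTC909 libraries held 1 or 2 of 7 urothelial markers and 2 to 5 of 10 general epithelial markers at that level, against 7 to 9 of 10 fibroblast markers, so the urothelial origin of the label was not seen in these markers. In 2 FADU libraries, normoxia replicate 1 and METTL4-si replicate 1, the summed breast luminal markers stood at 192 and 742 TMM-CPM against 59.8 to 96.2 in the other libraries of that table, with TFF1 at 26.2 and 135 and at 0 in the others.

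The main difference between the lines lay in the alpha chains. Per kb of exon, LAMA5 was the highest of the 8 in normoxic FADU cells, at 41.5 ± 3.30 TMM-CPM per kb (SD, n = 2), ahead of LAMB3 at 37.7 ± 0.143 and LAMC1 at 29.6 ± 0.548. LAMB2 at 8.44 ± 0.637, LAMB1 at 8.40 ± 0.445 and LAMA3 at 6.59 ± 0.405 followed, and LAMB2 and LAMB1 did not differ beyond their spread. LAMA1 at 0.0660 ± 0.0216 and LAMA4 at 0.0377 ± 0.000610 were lowest. In normoxic BFTC909 cells LAMB3 at 40.3 ± 0.257 and LAMC1 at 34.5 ± 0.688 led, and LAMB2 at 11.0 ± 0.549 and LAMB1 at 10.4 ± 0.0923 came next, while each alpha chain was low. LAMA3 stood there at 1.51 ± 0.0184, LAMA5 at 0.430 ± 0.0475 and LAMA4 at 0.213 ± 0.00466. This order depends on the length used. Per kb of coding sequence LAMB1 read 29.2 in FADU and 36.0 in BFTC909, above LAMB2 at 10.7 and 14.0. On that scale LAMC1 at 51.8 passed LAMB3 at 49.9 in FADU and overlapped LAMA5, whose libraries read 56.5 and 50.5, and in BFTC909 LAMC1 at 60.3 passed LAMB3 at 53.3.

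Within a library the alpha chains can be set against each other free of its scaling. LAMA5 exceeded LAMA3 per kb of exon in every FADU library, from 2.22-fold in a METTL4-OE library to 6.95-fold in normoxia replicate 1. The LAMA3 length joins the exons of its long and short transcripts, whose shares were not measured, so the size of this excess depends on that length. LAMA3 exceeded LAMA5 in 5 of 6 BFTC909 libraries, by 3.29-fold and 3.78-fold in normoxia and by 9.45-fold and 9.05-fold in hypoxia. The exception was METTL4-si replicate 2, where LAMA5 was level with LAMA3 at 1.03-fold per kb of exon and below it, at 6.28 against 6.84, per kb of coding sequence.

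**Figure D1:**
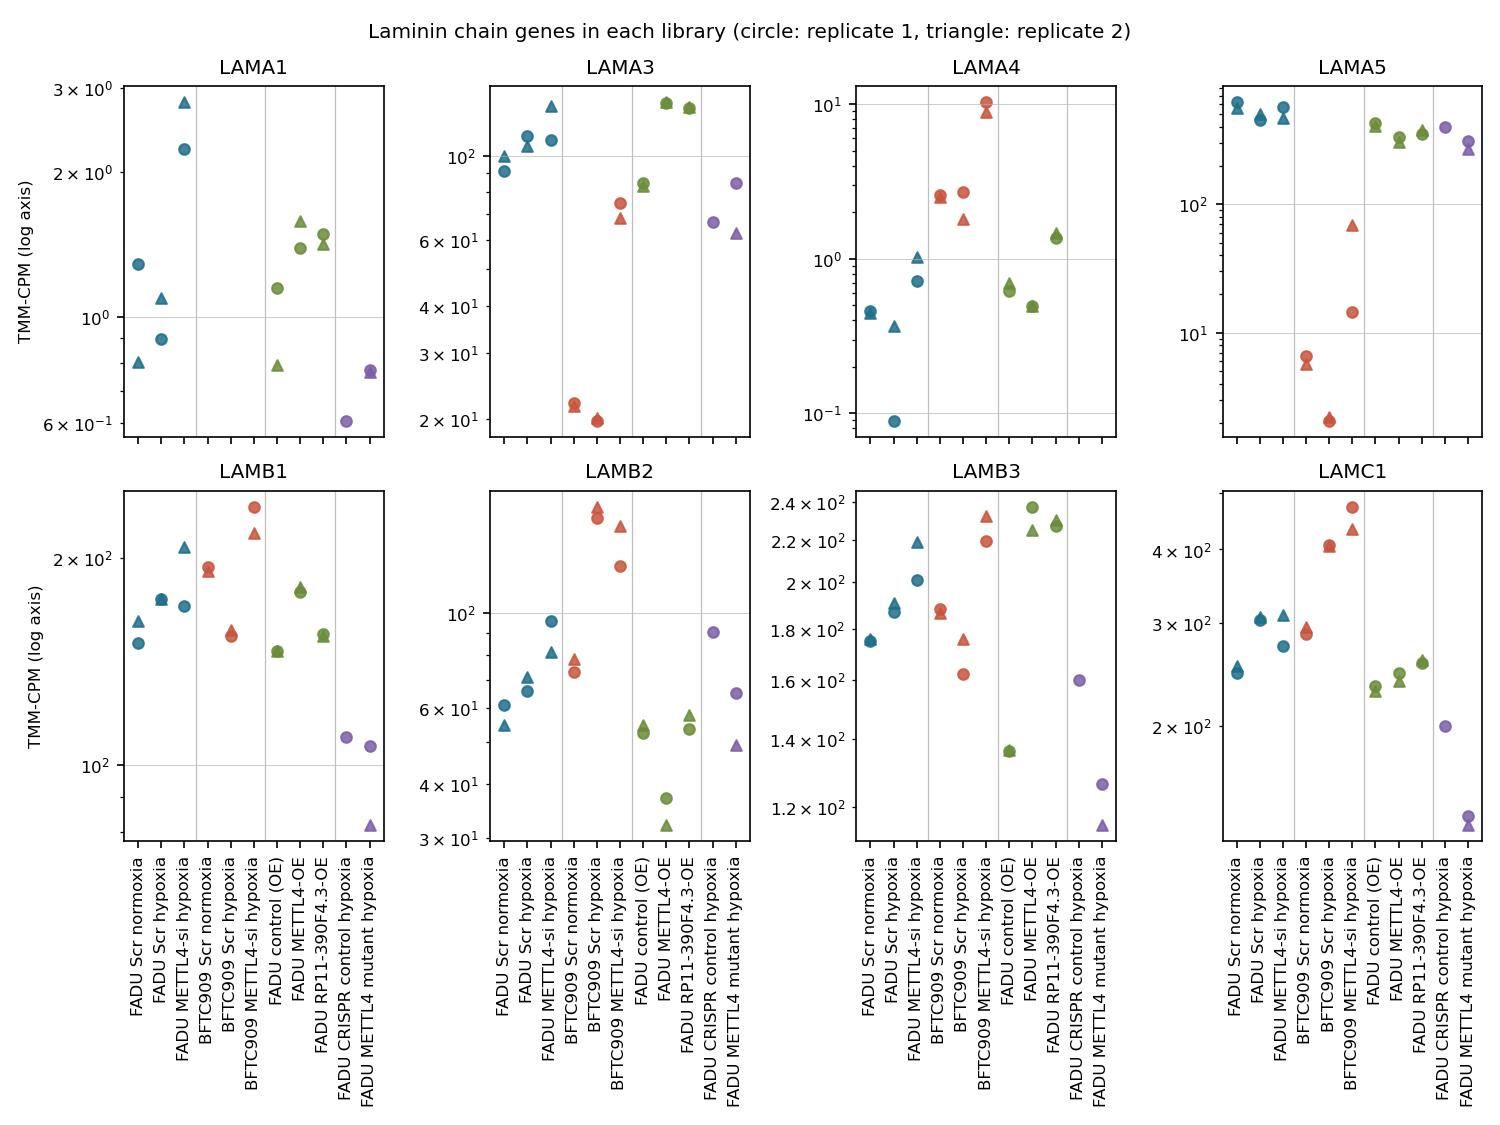
TMM-CPM on a log axis of each laminin chain gene in each library, with 1 panel a gene, groups along the x axis, circles for replicate 1 and triangles for replicate 2, and 1 colour for each of the 4 separately normalised tables. LAMA5 lies above 250 in every FADU library and below 70 in every BFTC909 library, where METTL4-si replicates 1 and 2 stand apart at 14.5 and 69.6.

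In FADU cells hypoxia moved no laminin chain past the threshold of a call. None of 7 tested members was called at 1.3-fold or more with an adjusted p under 0.05 by limma, up or down, against 9.73% of the 16324 tested genes called up and 9.65% called down. With an unadjusted p under 0.05 and 1.3-fold the count was also 0, and edgeR on whole reads also called 0. An unadjusted p alone took 1 member up and 1 down, and 6366 of the 16324 tested genes in either direction. LAMA4, at 0.0899 to 1.02 TMM-CPM, reached 1 in 1 library of this table and was not tested.
LAMC1, the gamma chain of most laminins, read 247 and 253 in normoxia and 303 and 306 in hypoxia. The groups did not overlap, and its adjusted p was 0.0357, but its fold of 1.22 was below the threshold.
LAMA5 read 626 and 560 in normoxia and 454 and 502 in hypoxia, 1.24-fold lower (adjusted p = 0.106). Both hypoxic libraries were below both normoxic ones.
LAMA3 read 91.4 and 99.7 in normoxia and 113 and 106 in hypoxia (adjusted p = 0.226), and LAMB3 read 175 and 176 against 187 and 191 (adjusted p = 0.290). These laminin-332 chains were higher in both hypoxic libraries, by less than the test could call. LAMB1 read 150 and 162 against 174 and 174, LAMB2 61.0 and 54.9 against 65.8 and 71.0, and LAMA1 1.29 and 0.804 against 0.899 and 1.09. Summed general epithelial markers went from 4915 and 4447 to 3112 and 3184, with 1 of 10 called up and 4 down, and their part in these values was not tested.

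In BFTC909 cells hypoxia raised LAMB2 and LAMC1. Of 7 tested members these 2 were called up, against 17.9% of the 14869 tested genes, and 0 were called down, against 18.3%. An unadjusted p under 0.05 took 2 up and 1 down, and 7981 of the 14869 tested genes in either direction. By edgeR on whole reads 2 were called up and 0 down.
LAMB2, the beta chain of laminins such as 521, read 72.9 and 78.2 in normoxia and 166 and 177 in hypoxia. It rose 2.27-fold (log2 fold change 1.17 ± 0.11 SE, adjusted p = 0.000200), with no overlap of the groups.
LAMC1 read 287 and 295 in normoxia and 408 and 406 in hypoxia, a rise of 1.40-fold (adjusted p = 0.00117).
LAMA5 read 6.62 and 5.66 in normoxia and 2.07 and 2.20 in hypoxia, 2.88-fold lower on the means, yet its adjusted p was 0.135. The fit shares 1 spread over the 3 groups of the table, and LAMA5 differed 4.79-fold between the METTL4-si libraries. Without METTL4-si replicate 1 or without replicate 2, the same LAMA5 difference of -1.19 on the log2 scale was called, with adjusted p = 4.8e-07 and 1.2e-06.
LAMB1 read 194 and 191 in normoxia and 154 and 157 in hypoxia (adjusted p = 0.00802), below the fold threshold at 1.24-fold lower. LAMB3 read 188 and 186 against 162 and 176, LAMA3 22.1 and 21.7 against 19.9 and 20.2, and LAMA4 2.60 and 2.52 against 2.70 and 1.82, and none of these passed. Hypoxic libraries lay below normoxic ones for LAMB3 and LAMA3, and overlapped them for LAMA4. Summed fibroblast markers moved as LAMB2 and LAMC1 did, from 2002 and 2136 TMM-CPM in normoxia to 6212 and 6443 in hypoxia, with 7 and 8 of 10 markers and then 9 of 10 at 1 or more. Summed general epithelial markers went from 85.3 and 83.3 to 23.7 and 23.1, with none of 4 tested called. The part of either list in these results was not tested.

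Among FADU libraries labelled hypoxic, those labelled METTL4-si differed from Scr in 1 of 7 tested members. LAMA1, an alpha chain of embryonic laminins, was called up, against 12.5% of tested genes, and 0 members were called down, against 15.3%. At an unadjusted p under 0.05 limma took 2 members up and 0 down, and 7414 of the 16324 tested genes in either direction. By edgeR on whole reads 1 was called up and 0 down.
LAMA1 read 0.899 and 1.09 in Scr and 2.23 and 2.80 in METTL4-si, or 20 and 24 reads against 56 and 63. The difference of 2.53-fold (adjusted p = 0.0130) rests on these few reads, and the call was lost when either Scr library was left out (adjusted p = 0.0929 and 0.0651).
LAMB2 read 65.8 and 71.0 in Scr and 96.1 and 81.3 in METTL4-si, a fold of 1.297 that lay just under the 1.3-fold threshold (adjusted p = 0.0331). LAMB2 was past the fold threshold without METTL4-si replicate 2, a refit that left 1 METTL4-si library.
LAMA5 read 454 and 502 in Scr and 577 and 466 in METTL4-si, and LAMC1 303 and 306 against 274 and 309, with overlapping groups. METTL4-si replicate 1, with the raised luminal markers, had the higher LAMA5 and the lower LAMC1, LAMA3 (110 against 135) and LAMB1 (171 against 208) of the pair. Without it and normoxia replicate 1, 1 member was still called. LAMB3 read 187 and 191 in Scr and 201 and 219 in METTL4-si (adjusted p = 0.120). Summed squamous markers went from 4042 and 4428 in Scr to 2544 and 2841 in METTL4-si, with 7 of 12 called down and 0 up. Neither their part nor that of the low CA9 and SLC2A1 was tested.

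Among BFTC909 libraries labelled hypoxic, those labelled METTL4-si had higher levels of 5 of 7 tested members. LAMA3, LAMA4, LAMA5, LAMB1 and LAMB3 were called up, against 13.2% of tested genes, and 0 were called down, against 11.7%. At an unadjusted p under 0.05, 5 members were up and 1 was down, against 6496 of the 14869 tested genes in either direction. By edgeR on whole reads 5 were called up and 0 down. The median log2 fold change of the 7 was 0.54, and that of all tested genes was 0.0099.
LAMA3 read 19.9 and 20.2 in Scr and 74.9 and 68.4 in METTL4-si, a rise of 3.58-fold (log2 fold change 1.79 ± 0.08 SE, adjusted p = 2.5e-05). Both METTL4-si libraries lay far above both Scr libraries.
LAMB3 read 162 and 176 in Scr and 220 and 233 in METTL4-si, a rise of 1.34-fold (adjusted p = 0.00375). This call was lost without Scr replicate 1, without METTL4-si replicate 2 and with the libraries centred on their medians.
LAMA4 read 2.70 and 1.82 in Scr and 10.3 and 8.91 in METTL4-si, a rise of 4.26-fold (adjusted p = 0.000412), on 56 and 38 reads against 220 and 177.
LAMB1 read 154 and 157 in Scr and 238 and 218 in METTL4-si, a rise of 1.46-fold (adjusted p = 0.00117). LAMC1 read 408 and 406 against 473 and 434, with no overlap and an adjusted p of 0.115. LAMB2 read 166 and 177 against 129 and 160 (adjusted p = 0.105). Without METTL4-si replicate 2, which left 1 METTL4-si library, its log2 fold change was -0.41.
Summed fibroblast markers were lower in both METTL4-si libraries, at 4276 and 4392 against 6212 and 6443 in Scr, with 9 of 10 at 1 or more in each library and 2 of 9 called up and 4 down. Neither their part in these results nor that of the lower CA9 and SLC2A1 was tested.

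The LAMA5 value of this comparison must be read library by library. LAMA5 read 2.07 and 2.20 in Scr, 14.5 in METTL4-si replicate 1 and 69.6 in replicate 2. The pooled log2 fold change was 3.40 ± 0.58 SE (adjusted p = 0.00475), and it was 2.31 without replicate 2 and 4.49 without replicate 1. Each of these refits left 1 METTL4-si library, so it held no spread of that group. Between these libraries the other 6 members differed by 0.864-fold to 1.24-fold, replicate 2 over replicate 1. The LAMA5 difference lay at percentile 99.7 of the 14869 tested genes, of which 57 (0.383%) were at least 4-fold higher in replicate 2 on the value + 1 scale and 0 were at least 4-fold lower. General epithelial markers and GATA3, 1 of the urothelial markers, stood high in the same library. KRT8 read 5.02 in replicate 1 and 715 in replicate 2, KRT18 24.2 and 379, GATA3 0.844 and 128, EPCAM 1.69 and 26.5, and GREB1, a breast luminal marker, 10.6 and 121. The summed general epithelial markers were 32.6 and 1143, with 5 of 10 listed, and the Scr libraries held 23.7 and 23.1. The summed urothelial markers were 23.2 and 149 against 12.05 and 11.66 in Scr. GATA3 made up most of the sum in replicate 2, where 2 of 7 were at 1 or more. The sum of the breast luminal markers, 3 of 10 listed, was 441 and 603 against 1178 and 1210 in Scr. CA12 made up most of it in Scr, at 303 and 285 against 996 and 1017, so this sum does not show how the other luminal markers stood. GREB1 among them stood high in replicate 2. In replicate 1 LAMA5 was 6.62 and 7.02 times the hypoxic Scr values. KRT8 at 5.02, KRT18 at 24.2 and GREB1 at 10.6 were also above both hypoxic Scr libraries. These held KRT8 at 2.60 and 3.25, KRT18 at 17.2 and 16.7, and GREB1 at 2.31 and 3.20. Against the normoxic Scr means, replicate 1 was lower for KRT8 (7.38) and KRT18 (74.8) and higher for GREB1 (1.79). The part of these markers in the LAMA5 value of either replicate was not tested.

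**Figure D2:**
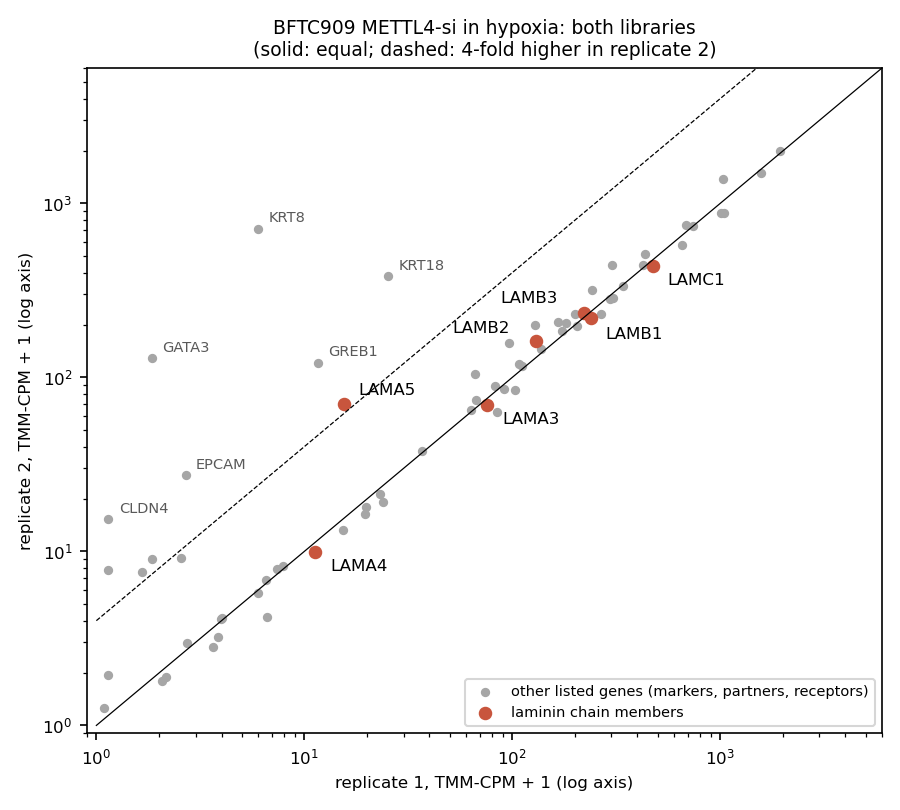
TMM-CPM + 1 on log axes of replicate 1 (x) and replicate 2 (y) of BFTC909 METTL4-si in hypoxia, for the laminin chain members in red and the other listed genes in grey, with a solid line for equal values and a dashed line for 4-fold higher in replicate 2. LAMA5, at 14.5 and 69.6, lies with KRT8, KRT18, GATA3, EPCAM, GREB1 and CLDN4 above the dashed line, and the other 6 members lie near the solid line.

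In FADU cells in normoxia, METTL4-OE raised the laminin-332 chain genes LAMA3 and LAMB3 and lowered LAMA5 and LAMB2. Of 8 tested members 2 were called up, LAMA3 and LAMB3, against 8% of the 15644 tested genes, and 2 were called down, LAMA5 and LAMB2, against 10.5%. LAMA4 passed the filter on low values through the RP11-390F4.3-OE group alone.
LAMA3 read 84.6 and 83.0 in the control and 138 and 139 in METTL4-OE, a rise of 1.65-fold (log2 fold change 0.72 ± 0.04 SE, adjusted p = 2.5e-08).
LAMB3 read 136 and 137 in the control and 237 and 225 in METTL4-OE, a rise of 1.70-fold (log2 fold change 0.76 ± 0.04 SE, adjusted p = 1.5e-08). LAMA3 and LAMB3 were thus higher in both METTL4-OE libraries than in either control.
LAMA5 read 430 and 410 in the control and 331.6 and 304 in METTL4-OE, 1.32-fold lower (adjusted p = 5.3e-05). It was near the fold threshold, and the call was lost without control replicate 1 and without METTL4-OE replicate 2.
LAMB2 read 52.7 and 54.9 in the control and 37.1 and 32.0 in METTL4-OE, 1.56-fold lower (adjusted p = 1.0e-05). LAMB1 read 147 and 146 against 179 and 182, which was 1.23-fold higher and below the fold threshold (adjusted p = 9.1e-05), and LAMC1 234 and 230 against 247 and 238 (adjusted p = 0.263). The chains of laminin-511 therefore did not move together, since LAMA5 was lower and LAMB1 and LAMC1 were not.
Epithelial markers were lower in the same libraries. The summed general epithelial markers were 4407 and 4383 in the control and 3138 and 3042 in METTL4-OE, with 6 of 10 called down and 0 up, and 7 of 12 squamous markers were called down and 1 up. Their part in these results was not tested.

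RP11-390F4.3-OE was read against the same 2 control libraries. Of 8 tested members 3 were called up, LAMA3, LAMB3 and LAMA4, against 16.5% of tested genes, and 0 were called down, against 12.5%. At an unadjusted p under 0.05 limma took 4 up and 1 down, and 9101 of the 15644 tested genes in either direction. By edgeR on whole reads 3 were called up and 0 down.
LAMA3 read 134 and 135 (1.60-fold, adjusted p = 3.8e-08) and LAMB3 227 and 230 (1.68-fold, adjusted p = 1.4e-08). Both were higher than either control library.
LAMA4 read 0.620 and 0.698 in the control and 1.37 and 1.46 in RP11-390F4.3-OE, or 13 and 15 reads against 34 and 34 (2.14-fold, adjusted p = 0.00844). It had to differ to pass the filter, and the call was lost without control replicate 1 (adjusted p = 0.0501).
LAMA5 read 352 and 382, below both controls by 1.14-fold on the means (adjusted p = 0.00811) and under the fold threshold. LAMB2 read 53.8 and 57.9 and LAMB1 155 and 154. LAMC1 read 256 and 259, 1.11-fold higher than the control (adjusted p = 0.00870). The column with the higher LAMA5 also held GATA3 at 16.5 and GREB1 at 26.9, against 2.98 and 2.94 in the other. Summed general epithelial markers were 3624 and 3615 against 4407 and 4383 in the control, with 4 of 10 called down and 0 up. The part of these genes in the results was not tested.

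**Figure D3:**
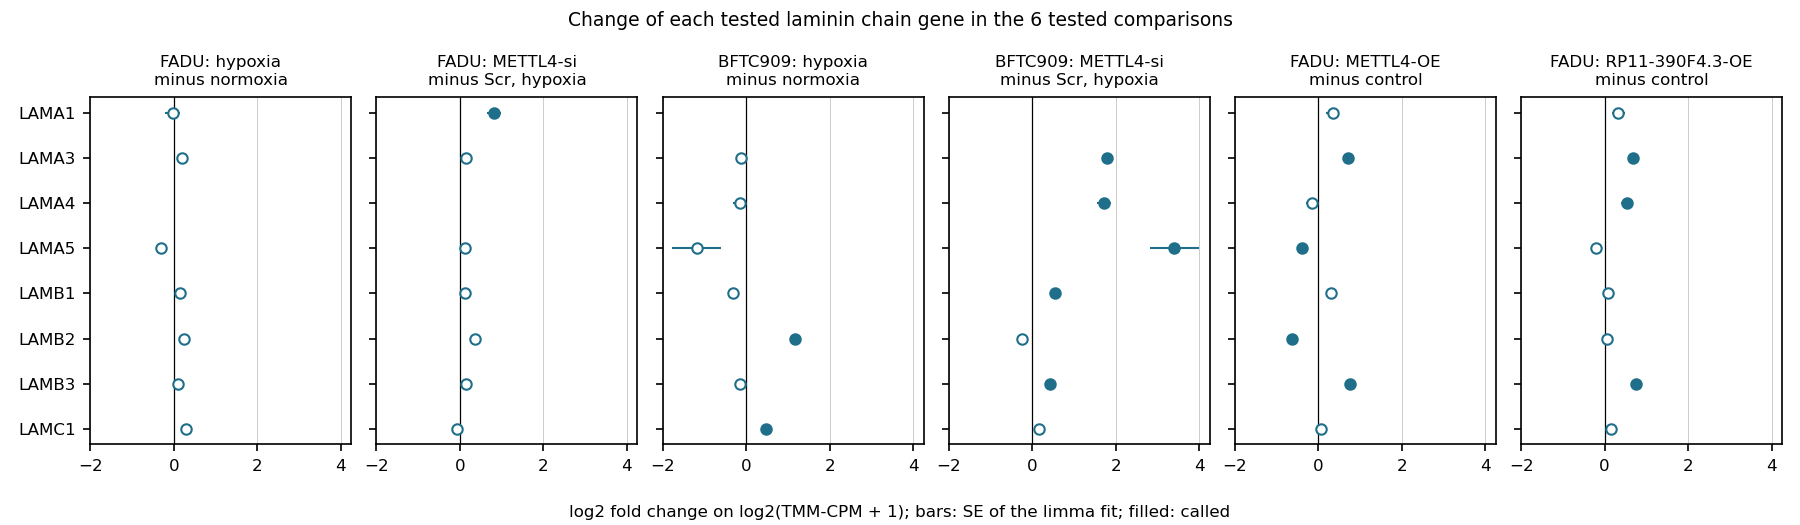
Log2 fold change of each tested laminin chain gene in the 6 tested comparisons, on the log2(TMM-CPM + 1) scale, with bars for the SE of the limma fit and filled points for genes called at 1.3-fold and an adjusted p under 0.05. LAMA3 and LAMB3 are filled in both overexpression panels and in BFTC909 METTL4-si, and the LAMA5 bars in the BFTC909 panels are the widest.

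The METTL4 mutant clones in hypoxia were compared with 1 control library, with no test. Values of this table were scaled on totals that also held unassigned reads, so its levels cannot be set beside those of the other tables. Of 7 listed members 5 were below the control in both clones, LAMA5, LAMB1, LAMB2, LAMB3 and LAMC1, against 40.7% of the 15719 genes of the table. By at least 1.3-fold in both clones on the value + 1 scale it was 2, LAMB2 and LAMC1, against 11.8%.
LAMC1 read 200 in the control and 140 and 135 in clones 1 and 2, and LAMB2 read 90.5 against 65.1 and 49.4. LAMA5 read 402 against 311 and 268. LAMB3 read 160 against 126 and 115, and LAMB1 110 against 107 and 81.7. These chains were lowest in clone 2 in each case. Summed general epithelial markers were also lower in both clones, at 1529 and 1890 against 2298, and their part was not tested.
LAMA3 read 66.7 against 84.7 and 62.5, on either side of the control. LAMA1 was at 0.607, 0.775 and 0.765. METTL4 read 12.5 in the control, 15.9 in clone 1 and 10.6 in clone 2. Since the knock-in changes the protein motif, this level does not check the label. Of the other check genes, CA9 read 29.8 in the control against 10.4 and 15.2 in clones 1 and 2. SLC2A1 read 867 against 848 and 740, and VEGFA 92.7 against 93.7 and 69.1. The part of the lower CA9 in the laminin values was not tested.

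To set laminin-332 against laminin-511, a balance was taken in each library from log2(value + 1) per kb of exon. It is the mean of LAMA3 and LAMB3 minus that of LAMA5, LAMB1 and LAMC1. The added 1 shrinks changes of low genes, such as LAMA5 at 2.07 and 2.20 in BFTC909 hypoxic Scr. Changes of the balance in BFTC909 therefore depend on it. It was given without a p, since it is a score over chosen members. Its absolute height depends on the gene lengths used, while its change within a table does not.
In FADU it was -0.49 and -0.42 in normoxia, -0.31 and -0.39 in hypoxia and -0.33 and -0.17 in METTL4-si. The hypoxic Scr libraries were above normoxia by 0.11 on the means, and the METTL4-si libraries overlapped Scr, with a difference of 0.10.
In BFTC909 the balance was 0.48 and 0.52 in normoxia, 0.68 and 0.72 in hypoxia, and 0.78 and 0.11 in METTL4-si replicates 1 and 2. The hypoxic Scr libraries were higher by 0.20, and both LAMA3 and LAMB3 were lower there, while LAMA5 and LAMB1 were lower too and LAMC1 was higher. The METTL4-si difference of -0.26 was 0.071 without replicate 2, and the sign of this small value was not checked without the added 1.
In the overexpression table it was -0.51 and -0.49 in the control, 0.24 and 0.26 in METTL4-OE and 0.21 and 0.18 in RP11-390F4.3-OE. Both groups stood above the shared control, by 0.75 and 0.70, and the libraries of a group differed by at most 0.025.
In the mutant table it was -0.32 for the control, -0.011 for clone 1 and -0.080 for clone 2. The laminin-511 chains were lower than the control in both clones, as was LAMB3, and LAMA3 was higher in clone 1 and lower in clone 2.

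The genes around the chains were counted from lists of basement membrane partners, receptors and laminin-332 processing enzymes. In hypoxic FADU cells 2 of 16 tested partners were up and 4 down, against 9.73% and 9.65% of all tested genes, with COL17A1, the hemidesmosomal collagen XVII, up 1.54-fold (adjusted p = 0.00599) and COL4A1, a type IV collagen chain, 1.57-fold lower (adjusted p = 0.0166). Of 14 receptors and anchors 2 were up and 3 down, among them ITGB4, the beta-4 integrin that binds laminin-332, 1.41-fold higher (adjusted p = 0.0110), and BCAM, a receptor for the alpha-5 chain, 1.41-fold lower (adjusted p = 0.00509).
In hypoxic BFTC909 cells 7 of 14 partners were up and 3 down, against 17.9% and 18.3% of all tested genes. HSPG2, the proteoglycan perlecan, rose 3.66-fold (adjusted p = 4.7e-05) and COL17A1 was 3.61-fold lower (adjusted p = 0.000111). Of 10 receptors and anchors 3 were up and 2 down, with ITGA6, the alpha-6 integrin, 2.82-fold lower (adjusted p = 5.8e-05). Of 3 tested processing enzymes 2 were up, MMP2, a gelatinase that cleaves laminin-332, by 5.99-fold (adjusted p = 3.7e-06) and BMP1, a procollagen protease that also trims laminin-332, by 2.08-fold (adjusted p = 6.1e-05).
In the FADU libraries labelled METTL4-si 7 of 16 partners were up and 1 down, and 5 of 14 receptors were up and 1 down, against 12.5% and 15.3% of all tested genes. ITGA2, an integrin of collagen and laminin, was 2.24-fold higher (adjusted p = 0.000513) and ITGB4 1.32-fold lower (adjusted p = 0.0153). In those of BFTC909 4 of 14 partners were up and 3 down, and 2 of 10 receptors were up and 0 down, against 13.2% and 11.7%. ITGA6 was 1.96-fold higher (adjusted p = 0.000579) and ITGA3, the alpha-3 integrin of laminin-332 and laminin-511, 1.40-fold higher (adjusted p = 0.00248).
In METTL4-OE 4 of 16 partners were up and 5 down, and 4 of 13 receptors were up and 2 down, against 8% and 10.5% of all tested genes, with PXDN, a peroxidasin that crosslinks collagen IV, 2.78-fold higher (adjusted p = 4.6e-10) and BCAM 1.85-fold lower (adjusted p = 9.8e-09). In RP11-390F4.3-OE 3 of 16 partners were up and 1 down, and 5 of 13 receptors were up and 2 down, against 16.5% and 12.5%, with ITGA2 3.0-fold higher (adjusted p = 9.8e-12) and BCAM 1.49-fold lower (adjusted p = 5.1e-07). Both overexpression results share their control libraries.

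The genes whose levels followed each member most closely were taken over all 21 libraries after the mean of each table was subtracted, among 10826 genes in all tables with a mean of at least 5. These values describe libraries that share tables and controls. LAMA3 was most like CDCP1 (Pearson r = 0.94), OCIAD2 (0.91) and EVC (0.90), and LAMB3 most like ANTXR2 (0.95), SLC25A37 (0.87) and MIR100HG (0.86). LAMA3 and LAMB3 had r = 0.68 with each other, and each had a higher r with LAMB1 (0.76 and 0.69). LAMA3 had 0.71 with LAMA5, which was 0.56 without BFTC909 METTL4-si replicate 2. LAMB2 was most like SLC50A1 (0.96), LINC00963 (0.94) and COL1A1 (0.93), and LAMC1 most like LMBRD1 (0.95), TMEM59 (0.93) and PLEKHM3 (0.93). LAMB1 had EVC (0.82) and GJB2 (0.81) among its 3 most like genes. LAMA5 was most like SYNGR2 (0.95), RNF43 (0.93) and HIP1 (0.93), and without BFTC909 METTL4-si replicate 2 these fell to 0.83, 0.75 and 0.74. LAMA1 and LAMA4 were not in all tables and have no such list.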

How the data were processed

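Per the paper's methods and the submitters' processing notes, the authors used Trim Galore on reads of stranded, ribosome-depleted libraries, HISAT2 against hg19, htseq-count per gene and TMM factors of edgeR. Versions, annotation and counting settings were not given in the sources used here. The deposited values are a normalised signal, TMM-CPM, from which whole reads were recovered in all 4 tables (100% of low values within the tolerance). The deposited tables of the authors' own comparisons hold log2 fold changes, mean log2 CPM, a score (F) and p-values, and were not used. Symbols were found for 18887, 16721, 17763 and 15308 of the 19505, 17232, 18316 and 15719 identifiers of the FADU knockdown, BFTC909, overexpression and mutant tables, and unassigned rows of the mutant table (40.9% to 43.0%) were left out.

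limma 3.58.1 (R 4.3.3, eBayes with trend) was fitted on log2(value + 1), which understates the change of low genes, for genes of at least 1 in at least 2 libraries, with 1 spread for the 6 libraries of a table. Genes were called at 1.3-fold and a Benjamini-Hochberg adjusted p under 0.05 over all genes tested. edgeR 4.0.16 on recovered reads was an alternative, and both were tested on simulated data. SE is that of the fit. The labels do not say that replicates were separate cultures, so p-values measure the spread between these libraries. Lengths are unions of GRCh37 exons (GENCODE v44). The 8 members all appear in the text. Of other lists, up to 4 called genes with the highest and lowest log2 fold change were eligible. Another form of the balance is not reported here. Members and lists were chosen with earlier results of these data known.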

Additional observations from a re-analysis of the deposited data

Results flagged for a closer look

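For 3 members every hypoxic Scr library lay above both normoxic ones in FADU and below both in BFTC909. The log2 fold change in BFTC909 minus that in FADU was -0.32 for LAMA3, -0.47 for LAMB1 and -0.25 for LAMB3. Likewise LAMB2 was higher in both METTL4-si libraries than in Scr in FADU and lower in both in BFTC909, with a difference of -0.62. The lines were normalised separately, and these differences between lines were not tested. None of these 8 changes was called in its own line. Groups of 2 libraries often separate. In each hypoxia comparison 6 of 7 tested members did not overlap, and in METTL4-si it was 3 of 7 in FADU and 7 of 7 in BFTC909. The share of all tested genes without overlap was not counted, so nothing about the members can be read from these counts. The share of all genes with opposite orders in the lines was not counted, so these members cannot be judged against it.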

How the results depend on the processing

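The 6 comparisons were refitted with pseudocounts of 0.1 and 5, no filter on low values, a mean of at least 5, median-centred libraries, edgeR on whole reads, the study's unadjusted p and each library left out. Of 609 refits of single members, 582 kept their direction and their side of the threshold, 10 lost a call, 4 gained one and 13 changed sign, and the causes were not tested. Leaving out both FADU libraries with raised luminal markers, and leaving out libraries for the balance, were chosen after seeing the data.

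In FADU METTL4-si the count of members up was 0 with a pseudocount of 5, 0 with a mean of at least 5, which leaves LAMA1 untested, and 2 without a filter, which adds LAMA4. It ranged from 0 to 2 with 1 library left out. With 1 library left out, members down ranged from 0 to 1 in both BFTC909 comparisons and from 1 to 2 in METTL4-OE. In BFTC909 METTL4-si the change in the balance ranged from -0.60 to 0.071 with 1 library left out.

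Sign changes were all in log2 fold changes that were not called. In FADU hypoxia LAMA1 was 0.021 with median centring and 0.14 without both luminal libraries, and ranged from -0.20 to 0.14 with 1 library left out. In FADU METTL4-si, LAMA5 was -0.037 and LAMC1 0.020 without the luminal libraries, and the ranges with 1 left out were -0.037 to 0.27 for LAMA5, -0.032 to 0.25 for LAMB1 and -0.15 to 0.020 for LAMC1. LAMA4 ranged from -0.34 to 0.057 in BFTC909 hypoxia. In RP11-390F4.3-OE median centring gave -0.0028 for LAMB1 and -0.028 for LAMB2, and LAMB2 ranged from -0.00045 to 0.11.

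Deviations by replicate number correlated at 0.648 between FADU normoxia and METTL4-si, so these groups shared a deviation. Between the other groups the correlation ran from -0.065 to 0.154, so equal replicate numbers did not pair the libraries throughout. With the replicate number as a block the counts of members up and down were 0 and 0 in FADU hypoxia, 1 and 0 in FADU METTL4-si, 2 and 0 in BFTC909 hypoxia, 5 and 0 in BFTC909 METTL4-si and 2 and 2 in METTL4-OE, and a block could not be fitted for RP11-390F4.3-OE, whose columns carry no replicate label. Read depth limits LAMA1 and LAMA4 in FADU, at 2 to 63 reads a library.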
